A study of Homo sapiens with 12 samples.

Results

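The peaks described here were the STAT5B peaks of the T-ALL cell line KOPT-K1 that lay on chromosomes 6 and 8. They were selected on a measured value, the chromosome of each peak called in the KOPT-K1 list, so their number and their peak values are given as a description and without a test. The rule took 1355 of the 2755 KOPT-K1 peaks, or 49.2%, of which 492 lay on chromosome 6 and 863 on chromosome 8. The study mapped STAT5B by ChIP-Seq in 6 human T-ALL lines. High pY-STAT5 had been found in 4 of them, SUP-T13, HSB-2, DND-41, and KOPT-K1, and low pY-STAT5 in the other 2, JURKAT and LOUCY. The paper reports a biallelic driver mutation of STAT5B itself in KOPT-K1. Each line was represented by 1 STAT5B library and 1 input library, so that no value had a replicate and each group was limited to the few leukemias from which its lines came. All coordinates refer to GRCh38 and count from 1.

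STAT5 proteins are phosphorylated on a tyrosine by JAK kinases after cytokine binding, pair up, enter the nucleus, and bind DNA. In developing T cells, IL-7 acts through this pathway to support survival and proliferation, and activating mutations of the pathway occur in T-ALL. The preferred DNA element, called GAS, is a palindrome made of the bases TTC and GAA around a short spacer, written here as TTCNNNGAA.

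The sequences under a few summits, the highest point of each peak, are shown to let a reader see which windows held the palindrome and which did not. Each window reaches 40 bases to either side of the summit on the plus strand of chromosome 6, and capitals mark TTCNNNGAA. Among the members, only the 60.2 Mb window had both a palindrome and a −log10 q, the authors' measure of peak significance, of at least 5. The PKIB window shown holds 2 palindromes, MCHR2 is the gene nearest to a window with the palindrome 4 bp from the summit, and the window in TMEM242, with a strong peak, holds none. The last window belongs to the DND-41 list and lies in coding exon 4 of CRYBG1.
Peak near the centromere, chr6:60240131-60240211: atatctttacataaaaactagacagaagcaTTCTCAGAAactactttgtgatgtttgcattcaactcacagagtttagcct
PKIB intron 2, chr6:122635471-122635551: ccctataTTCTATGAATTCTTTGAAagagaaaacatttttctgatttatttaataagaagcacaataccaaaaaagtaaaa
Neighbor of MCHR2, chr6:99802210-99802290: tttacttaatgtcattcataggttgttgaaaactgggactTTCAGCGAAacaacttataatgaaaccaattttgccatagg
TMEM242 intron 3, chr6:157310833-157310913: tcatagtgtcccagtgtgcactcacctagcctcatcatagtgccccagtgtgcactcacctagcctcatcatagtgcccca
DND-41 peak in CRYBG1, chr6:106519476-106519556: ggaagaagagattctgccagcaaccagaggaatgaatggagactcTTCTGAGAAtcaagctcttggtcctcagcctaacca

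In this window of PKIB, which encodes an inhibitor of protein kinase A, the palindromes started 9 bp apart and so touched. The TMEM242 window repeated itself with a period of 34 bases, at which 46 of 47 compared bases were equal. The word of 31 bases at a typical position of that window occurred 4 times in the reference genome, and at the 60.2 Mb window 145 times. The corresponding count was 1 at the neighbor of MCHR2 and in the PKIB window.

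The summits were not spread over the chromosomes but formed 10 segments, defined as runs of at least 5 summits in which neighbors lay at most 1 Mb apart. Chromosome 6 had 8 segments with 473 summits and chromosome 8 had 2 segments with 853 summits, and 29 summits lay outside any segment. Together the segments spanned 66.2 Mb.

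On chromosome 8, 844 summits, or 97.8% of those of the chromosome, fell in a single segment from 74222344 to 98404509, a span of 24.2 Mb with 34.9 summits per Mb. Neighboring summits of that segment lay a median of 19.4 kb apart, with quartiles of 12.4 and 28.7 kb. The intervals covered 32.2% of its bases. With neighbors at most 0.5 Mb apart, the chromosome had 5 segments instead of 2, and the one with the most summits, 516, ran from 80.5 to 94.7 Mb. The other segment of the chromosome in the 1 Mb chaining, from 71101934 to 72692051, held 9 summits.

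The densest segment of chromosome 6 ran from 96308193 to 105335806, a span of 9.03 Mb, and held 229 summits, or 46.5% of those of the chromosome. Its summits lay a median of 21.9 kb apart, and intervals covered 17.1% of it. The next by number was the segment from 128898528 to 138418104 with 95 summits and 55 genes, followed by that from 62534740 to 68682845 with 50 summits and that from 119176390 to 123061303 with 45. The remaining 4 segments of chromosome 6 held 8 to 17 summits each. One of them, from 59688310 to 61522760 beside the centromere, held 16 summits, no protein-coding gene, and 407356 unsequenced bases.

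Intervals were long. The median width was 4862 bp on chromosome 6 and 7048 bp on chromosome 8, the shortest was 3117 bp, and the longest was 51625 bp, on chromosome 8. The labels describe fragments selected between 200 and 400 bp, so that a summit locates the signal only roughly within such an interval. The shortest interval of the other lists was between 1185 bp in SUP-T13 and 2671 bp in LOUCY. The median width of all members, 5904 bp, lay below that of the other KOPT-K1 peaks, 6789.5 bp, and within the range of the medians of the other lists, from 3411.5 bp in JURKAT to 9708.5 bp in LOUCY.

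Enrichment was low in nearly all members. The enrichment over input, a linear fold, had a median of 2.00 on chromosome 6 and 2.06 on chromosome 8, and the middle 50% of all members lay between 1.94 and 2.16. The median −log10 q was 2.15. The other KOPT-K1 peaks had a median fold of 2.08 and the same median −log10 q. The median fold of the other lists lay between 1.69 in LOUCY and 2.27 in DND-41. Among the 1355 members, 426 different −log10 q values occurred, and the most common, 1.85, was shared by 140 peaks. Ties were more frequent in the other 1400 KOPT-K1 peaks, which had 247 different values. The 10 most common values held 44.4% of the members and 78.5% of the other KOPT-K1 peaks. A −log10 q of at least 5 was reached by 5 members, or 0.369%, 3 on chromosome 6 and 2 on chromosome 8. The share was 5.30% of all KOPT-K1 peaks and 10.1% of those outside these chromosomes. The first 2 members below that value shared 4.98, and one lay in the stretch between GRIK2 and HACE1 and the other in intron 11 of GRIK2. Other peaks among the 10 best of a chromosome lay outside protein-coding genes, 39.0 kb from FBXL4, 17.4 kb from ALDH8A1, and 260 kb from SLC26A7. Their −log10 q values were 3.73, 3.55, and 4.18.

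These 5 peaks lay in repeated sequence. The highest −log10 q, 67.6 with a 5.28-fold enrichment, belonged to the peak on chromosome 8 from 85769496 to 85774457. It lay in a stretch without protein-coding genes between CA2, a carbonic anhydrase gene, and ATP6V0D2, a subunit gene of the vacuolar proton pump. A second peak of that stretch, from 85650980 to 85661573, had a 4.03-fold enrichment and overlapped the pseudogenes REXO1L1P and REXO1L3P, which were named after their values had been seen. On chromosome 6, the peak from 59685120 to 59688605 had the highest fold of all members, 5.93, with KHDRBS2 as the nearest gene at a distance of 1.99 Mb. The peak in TMEM242 had a 3.24-fold enrichment and a −log10 q of 29.1, and the 60.2 Mb peak had a 2.61-fold enrichment and a −log10 q of 14.5. At the 5 summits, the typical 31-base word occurred between 4 and 408 times in the reference. In all members, 264 of 1355 windows, or 19.5% (95% exact binomial interval 17.4 to 21.7), had a typical word that occurred more than once. The share was 23.9% (22.3 to 25.5) of all KOPT-K1 windows and 28.2% (25.9 to 30.7) of those outside chromosomes 6 and 8. The part of repeated sequence in the enrichment was not tested.

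Within the long segment of chromosome 8, summits were densest where genes were few and GC content was low. In 24 bins of 1 Mb, the number of summits ranged from 4 to 57 around a median of 33. Across the bins, which share 1 library and differ in base composition, the number of summits had a Pearson's r of −0.869 and a Spearman's rho of −0.866 with the GC content and of −0.777 and −0.768 with the number of gene starts. The bin with 57 summits had no gene start and 34.5% GC, and the bin with 4 summits had 11 gene starts and 41.2% GC. In the 9 bins of the densest chromosome 6 segment, r with the GC content was −0.495 and rho −0.483. The corresponding values were −0.367 and −0.426 with the number of gene starts and 0.0900 and 0.102 with the percent of bases in genes, beside −0.501 and −0.594 for the last measure on chromosome 8. The part of base composition in the number of peaks was not tested.

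**Figure D1:**
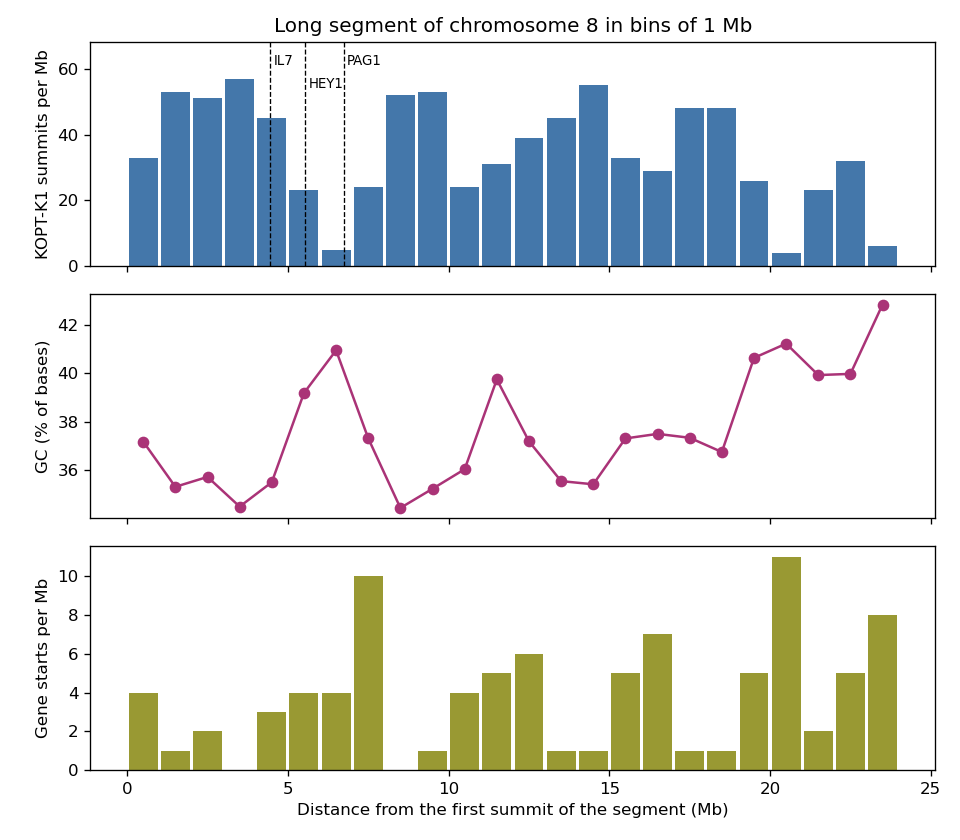
Number of KOPT-K1 summits (top), GC content in percent of bases (middle), and starts of protein-coding genes (bottom) in 24 bins of 1 Mb along the long segment of chromosome 8, with dashed lines at IL7, HEY1, and PAG1. Summits range from 4 to 57 per bin, and the bins with the fewest summits have a GC content above 40%, up to 42.8%.

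Gene-free stretches of more than 0.5 Mb, meaning without a protein-coding gene, held many of the summits. On chromosome 8, 11 such stretches with a summed length of 11.1 Mb held 513 summits, or 46.1 per Mb, beside 33.1 per Mb in its segments as a whole. On chromosome 6, 8 such stretches of 13.8 Mb held 174 summits, or 12.6 per Mb, beside 11.7 per Mb in its segments. The longest of chromosome 8, between SNX16 and RALYL, held 118 summits in 2.34 Mb, and intervals covered 52.4% of it. On the same chromosome, the stretch between PEX2 and PKIA held 79 summits in 1.52 Mb, and that between HNF4G and ZFHX4 held 59 in 1.11 Mb. Within chromosome 6, the stretch between GRIK2 and HACE1 held 93 summits in 2.65 Mb, whereas that between EYS and ADGRB3 held 15 in 2.93 Mb at a GC content of 34.7%. Stretches with low GC content and no genes thus included some with many and some with few summits.

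The longest gap between neighboring summits of the chromosome 8 segment, 634 kb, contained 7 whole genes, among them CCNE2, which encodes cyclin E2, and TP53INP1, a p53-induced gene. A gap of 622 kb contained TPD52 and ZBTB10, and a gap of 360 kb contained PAG1 and FABP5. A gap of 393 kb contained 5 genes, among them E2F5, a cell cycle transcription factor gene. A gap of 506 kb contained 6 genes, whereas gaps of 237, 214, and 206 kb contained no whole gene. In the densest chromosome 6 segment, the longest gap, 706 kb, contained 5 genes and the next, 619 kb, none.

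Summits lay in genes less often than the bases of the chromosome 8 segments did. Of the 853 summits there, 25.1% (22.2 to 28.1) lay in a protein-coding gene, which covered 34.3% of the bases. On chromosome 6 the share was 34.9% (30.6 to 39.4) beside 33.7% of the bases. Promoters, taken as 2 kb to either side of any annotated start site, held 30 of the 1326 summits in segments, or 2.26% (1.53 to 3.21), and made up 4.12% of the bases. These intervals cover counting error only, and neighboring peaks are not independent.

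IL7 encodes the cytokine that signals through the IL-7 receptor to STAT5. Its gene held 7 summits and no promoter summit, with fold enrichments from 1.91 to 2.28 and −log10 q values up to 3.06. Some of these summits, among them the one with both highest values, lay outside the canonical transcript. The summit nearest to a start site lay 4.45 kb from it in intron 1, with a 2.23-fold enrichment, and intervals covered 62.4% of the gene. The 5.39 summits per 100 kb of IL7 stood beside 3.49 for the whole segment, and the gene lay in a bin with 45 summits and 35.5% GC. HEY1, a NOTCH target gene that encodes a transcriptional repressor, held no summit, and the nearest lay 32.3 kb from its start site with a 1.94-fold enrichment. PAG1, which encodes a membrane adaptor that recruits the inhibitory kinase CSK, also held none. The summit nearest to any of its annotated start sites was 37.6 kb away, and the bin in which PAG1 lies had 5 summits and 40.9% GC.

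Of the 1752 protein-coding genes of both chromosomes, 108 (6.16%) had a member summit in the promoter or body, and of the 225 genes that overlapped a segment, 93 (41.3%). Segment genes with a summit had a median length of 117 kb and those without of 32.8 kb. Of 34 T-lymphoid and cytokine signaling genes, 3 had a summit, namely IL7, BACH2, and SGK1. BACH2, a transcriptional repressor gene of lymphocytes, held 1 summit in intron 4 with a 2.07-fold enrichment. SGK1, which encodes a kinase downstream of PI3K, held 1 summit 404 bp from a start site with a 1.97-fold enrichment, in a window whose typical word occurred 49 times. Of the 11 genes of this list that overlapped a segment, 8 had none, among them PAG1, RIPK2, MYB, TNFAIP3, and IFNGR1, and the nearest summit lay 274 kb from a start site of MYB and 155 kb from one of TNFAIP3. RIPK2, which encodes a kinase of innate immune signaling, was overlapped by 1 member interval, which covered 35.7% of the gene, with the summit outside.

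Of 17 NOTCH target and transcription factor genes, 8 overlapped a segment and 4 had a summit, beside the 41.3% of all segment genes. RUNX1T1, known as the fusion partner of RUNX1 in acute myeloid leukemia, held 11 summits, and 4 were promoter summits, one of them 5 bp from a start site with a 2.16-fold enrichment. ZFHX4, a zinc finger homeobox gene, also held 11 summits, with the nearest 28 bp from a start site. HNF4G, a nuclear receptor gene, held 9, most of them outside its canonical transcript. HEY2, a relative of HEY1 on chromosome 6, held 1 summit in exon 5 with a 1.93-fold enrichment. Of 11 cell cycle and DNA repair genes, 8 overlapped a segment, and only CCNC, which encodes cyclin C, held a summit, in intron 5 with a 1.99-fold enrichment. NBN, which encodes a DNA break repair protein, had its nearest summit 6.26 kb from a start site.

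The genes with the most summits were long, and some summits of GRIK2 and CNBD1 lay outside the canonical transcript. GRIK2, a glutamate receptor gene of 1119 kb, held 53 summits, or 4.74 per 100 kb beside 2.54 in its segment. EYS, a photoreceptor gene of 1987 kb, held 22, or 1.11 per 100 kb beside 0.813. PDE7B, a cyclic AMP phosphodiesterase gene, held 16, or 4.65 per 100 kb beside 0.998 in its segment, and PKIB held 4, or 1.57 beside 1.16. ASCC3, a helicase gene, held 8, or 2.14 per 100 kb beside 2.54 in its segment. On chromosome 8, CNBD1 held 34 summits, or 4.54 per 100 kb, RALYL 23, or 3.11, and CPQ, a carboxypeptidase gene, 18, or 3.57. MMP16, a membrane-type matrix metalloproteinase gene, held 15, or 5.07 per 100 kb. RALYL and ASCC3 thus had fewer summits per length than their segments, and CPQ about as many as its segment with 3.49.

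Promoter summits belonged to 25 genes, 12 on chromosome 6 and 13 on chromosome 8. On chromosome 6 the highest −log10 q was 3.11 at PDE7B, 198 bp from a start site, followed by SGK1 with 2.17. DST, FAXC, KCNQ5, SLC2A12, OLIG3, LMBRD1, GRIK2, and TCF21 came next. On chromosome 8, CNBD1 led with 3.81 in a window whose typical word occurred 272 times. Among the others were ZFHX4, RUNX1T1, TRIQK, PI15, ESRP1, CALB1, CNGB3, LRRC69, and NIPAL2. Any annotated start site counted, and some of these sites lay far inside a gene. The KCNQ5, LMBRD1, and leading CNBD1 summits lay in intron 11, coding exon 13, and intron 9 of the canonical transcript. OLIG3 and TCF21, both genes of basic helix-loop-helix factors of other tissues, had summits 943 and 1914 bp from a start site.

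The GAS palindrome was looked for within 50 bp of each summit and, for comparison, in windows of the same length 1000 bp to either side. It is independent of the rule, since peak calling uses no sequence motif. The palindrome was found at 42 of 1355 member summits, or 3.10% (95% exact binomial interval 2.24 to 4.17), and in 4.06% (3.35 to 4.87) of their flanking windows, a difference of −0.959 percentage points. The share was 3.25% (1.87 to 5.23) on chromosome 6 and 3.01% (1.98 to 4.38) on chromosome 8. It was 4.36% of all KOPT-K1 summits and 5.57% of those outside these chromosomes. A stricter form with a pyrimidine and a purine beside the inner spacer base was found at 1.03% (0.566 to 1.73) of member summits and in 1.55% (1.12 to 2.09) of flanks. No excess at the summits over these flanks was detected in either form. Member intervals were at least 3117 bp long, so that many flanking windows lay in the same interval as their summit. The comparison therefore cannot decide whether the intervals as a whole are enriched for the palindrome.

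On chromosome 2, the other chromosome with many KOPT-K1 peaks, 50 of 848 summits, or 5.90% (4.41 to 7.70), held the palindrome, with 3.95% (3.07 to 4.99) in the flanks. The stricter form was found at 3.66% (2.50 to 5.15) of these summits and in 1.71% (1.15 to 2.45) of the flanks, and the interval of the summits lay above that of the flanks and above that of the members. Peaks of 1 library are not replicates, and the difference between chromosomes was not tested across samples. The −log10 q was at least 5 in 57 of the 848 chromosome 2 peaks.

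**Figure D2:**
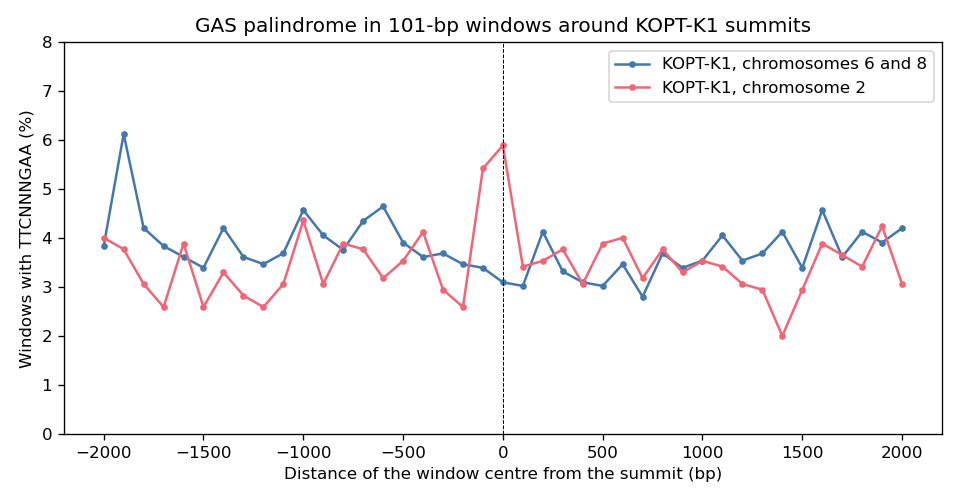
Percent of windows with the GAS palindrome by distance of the window center from the KOPT-K1 summit in bp, for members (blue) and chromosome 2 peaks (red). The members range from 2.80% to 6.13% with 3.10% at the summit, and the chromosome 2 peaks reach their maximum of 5.90% at the summit.

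None of the 42 member summits with the palindrome lay in a promoter window, and 13 lay in a protein-coding gene, beside 2.26% and 28.6% of all summits in segments. Their median fold enrichment was 2.02, beside 2.04 in the other members. In the long chromosome 8 segment, palindromes numbered 0.412 per kb in the intervals and 0.403 per kb in the whole segment. In the densest chromosome 6 segment the values were 0.417 and 0.405 per kb. The order was reversed in other segments, such as that from 128898528 to 138418104, with 0.349 and 0.396 per kb. The segment beside the centromere of chromosome 6 stood apart with 1.24 palindromes per kb, as opposed to 0.386 to 0.422 in the other 9 segments. Its intervals had fewer, 0.856 per kb. GC content at the member summits had a median of 37.6%, and 35.6% in the flanks.

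The other 5 lists had almost no peaks on these chromosomes, which make up 10.2% of the genome. DND-41 had 2 of its 6015 peaks there, and HSB-2 with 3052, SUP-T13 with 4368, LOUCY with 2338, and JURKAT with 6316 peaks had none. In none of the 10 segments did another list have a summit or any base of an interval. Accordingly, 0 of the 1355 member intervals were overlapped by any other list, and 0 had a summit of another list within 500 bp.

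KOPT-K1 intervals outside chromosomes 6 and 8 were overlapped by at least 1 bp in 60.5% by the DND-41 list, 81.1% by HSB-2, 63.3% by SUP-T13, 81.9% by LOUCY, and 72% by JURKAT. These include intervals of up to 18027028 bp, on chromosome 2, and only 0.857% to 2.43% of the 1400 summits outside had a summit of another list within 500 bp. Absence of whole chromosomes was common in the lists. DND-41 had no peak on 4 of the autosomes, HSB-2 on 12, SUP-T13 on 13, LOUCY on 14, and JURKAT on 13, and KOPT-K1 itself on 5. The reason was not tested. The paper describes STAT5B peaks in BCL2, a gene of chromosome 18, in the high pY-STAT5 lines. The lists of KOPT-K1, HSB-2, and SUP-T13 hold no peak on that chromosome and thus lack some of the binding described. Whether peaks on chromosomes 6 and 8 are missing in the same way is unknown. A 0 therefore describes the deposited list and not the absence of STAT5B.

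The 2 DND-41 peaks lay between KOPT-K1 segments. The one on chromosome 6, in CRYBG1, had a 1.87-fold enrichment and a −log10 q of 6.23, and its summit was 1.18 Mb from the nearest member summit. The one on chromosome 8, from 73756147 to 73757659, had a 2.49-fold enrichment and a −log10 q of 54.2, and its summit was 0.466 Mb from the nearest member summit. Both had the stricter palindrome within 50 bp of the summit.

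KOPT-K1 chose the chromosomes and was left out of the comparison between groups. The share of peaks on chromosomes 6 and 8 was 0.0333% in DND-41 and 0% in each of the other 4 lines. The mean was 0.0111% ± 0.0192 (SD, n = 3) in the other high pY-STAT5 lines and 0% (n = 2) in the low lines (exact two-sided permutation test, p = 1). The test had 10 splits. Only DND-41 had a value above 0, so no split could give a difference smaller in size. The p-value was thus fixed by the values of 0, and the test cannot decide between the groups. Each of the 5 lines had few or no peaks there, and a difference between the groups was not detectable.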

How the data were processed

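STAT5B ChIP-Seq libraries and input libraries of 6 T-ALL cell lines had been sequenced. Per the supplemental methods and the submitters' notes, the authors used PRINSEQ-lite to filter reads, BWA 0.7.15-r1140 and SAMtools 1.4 to align them to GRCh38, and MACS2 to call peaks with each line's own input as control. The settings of MACS2 are not given, and the signal tracks were not used. The deposited lists give for each peak the enrichment over input as a linear fold (ratio), a −log10 p-value, a −log10 q-value, a score derived from the −log10 q (not used), and the offset of the summit in bases. The depth of the libraries is not stated in the lists.

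Genes were the 20033 protein-coding entries of GENCODE version 44, with exons and introns numbered along the canonical transcript. A gene body spanned the whole annotated gene, so that summits in it can lie outside that transcript. Intervals of shares are 95% binomial intervals by the exact method of Clopper and Pearson. How often each 31-base word around a summit occurs was counted on both strands of the reference, and the median over the window was used. Python 3.11.15, NumPy 2.4.6, SciPy 1.17.1, and matplotlib 3.10.9 were used, and the functions were tested on simulated data. The members and gene lists were chosen with earlier results of these data known. The genes named were IL7, HEY1, and PAG1, the genes in or nearest to the 10 best peaks of each chromosome by −log10 q, the 10 genes of each chromosome with the highest promoter summit, the 5 with the most body summits, and every gene of 3 lists with a summit in its promoter or body. Other genes, such as MCHR2 and CRYBG1, were named after their values had been seen, as neighbors of a printed window, stretch, or gap or as list members without a summit. Alternatives covered the segment gap, the −log10 q, the interval length, the motif, the promoter window, the overlap, and leaving out each line.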

Additional observations from a re-analysis of the deposited data

Results flagged for a closer look

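Over the 4 high pY-STAT5 lines, KOPT-K1 stood far from the others with 17.9% of its peaks on chromosome 6, 31.3% on chromosome 8, and 49.2% on both together. The KOPT-K1 list is the one that chose the chromosomes, so these overlapping values follow from the rule and are given as a description only. No line stood apart in the shortest interval, the median interval, or the median fold enrichment, the other 3 of the 6 measures checked.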

How the results depend on the processing

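The number of members fell from 1355 to 5 with a −log10 q of at least 5, to 804 with at least 2, and to 526 with intervals of at most 5 kb, each by the construction of the filter. Chaining summits at most 2 Mb apart gave 5 segments instead of 10, and at most 0.5 Mb apart gave 15. The share of summits with the GAS palindrome moved to 5.98% within 100 bp, beside 8.12% in the flanks, to 1.03% with the stricter form, and to 20% with a −log10 q of at least 5, which is 1 of 5 summits. The number of genes with a promoter summit was 14 within 1 kb, 51 within 5 kb, and 52 when any base of the interval counted, instead of 25. The difference between the other high and the low lines ranged from 0 to 0.0166 percentage points when each line was left out in turn, and was 0 without DND-41. With a −log10 q of at least 5 it was 0.0925 instead of 0.0111 percentage points, with an exact permutation p of 1. Only DND-41 had a value above 0 there too, so this p was fixed before the test. Using only windows with a median of 1 copy of each word, an alternative chosen after seeing the data, kept 1091 members, with the palindrome at 3.39% of summits, and the summits stayed below the flanks by −0.687 percentage points. All 15 alternative values of overlap and summit distance to another list were 0. Of 28 values for summits in single genes, 18 moved by more than 1.5 times, and none of 7 genes kept a summit with a −log10 q of at least 5.

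With 1 library per line, the spread between libraries is unknown, and no paired analysis was possible because the groups compared consist of different lines. The wide intervals limit how well a summit places the signal. Depth is unknown, and a motif match is not a binding site.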
